A study of Mus musculus with 62 samples.

Results

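The comparison is of chronic ethanol with chronic saline in the dorsal hippocampus (dHPC) of the mouse. Its members are the RNA-seq libraries of that region and paradigm, 6 of the 62 in the study, with 3 from ethanol mice (replicates 1, 4 and 6) and 3 from saline mice (replicates 2, 5 and 6). All were male C57BL/6J mice aged 8 to 10 weeks. The ethanol mice had received 2 g/kg ethanol, made up at 20% in saline, by intraperitoneal (i.p.) injection once daily for 10 days, and the control mice had received saline alone on the same days. Tissue was taken 4 h after the last injection. Each library is poly(A) RNA of the dissected region of 1 mouse, and the animals that share the replicate number 6 are different mice. The study sampled 5 brain regions after 1 (acute) or 10 (chronic) injections, to learn how region and length of exposure shape the response to ethanol. The question here is which genes differed in dHPC after repeated injections.

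The dHPC is built of the dentate gyrus and the CA fields, and some of its axons run in myelinated tracts. Myelin is made by oligodendrocytes, which wrap axons in layers of membrane that are packed by proteins such as MBP and are rich in galactolipids. Mature oligodendrocytes arise from precursor cells under transcription factors such as SOX10, OLIG2 and MYRF, and they also supply axons with metabolites and are joined to astrocytes by gap junctions. Ethanol and the stress of handling and injection can both raise circulating glucocorticoids, which act on nuclear receptors that switch on genes such as Fkbp5 in many brain cell types.

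The gene counts summed to between 44739844 and 71164766 per library. Correlations of log2 CPM (gene counts scaled to a common library size) between the 6 libraries lay between 0.986 and 0.996, and no pair of libraries was identical. The markers of the CA2 and CA3 fields summed to between 302 and 475 CPM in the saline libraries, against between 140 and 144 in the dorsal striatum (DS) of acute saline mice, whose libraries came from another kit and sequencing platform, so that levels in DS are a rough guide. Saline replicate 5 stood apart by markers of striatal projection neurons, which summed to 3681 CPM there, 6.32 times the median of the other 12 dHPC libraries (315 to 1290) and lower than in the DS libraries. The dopamine receptor gene Drd2 measured 105 CPM in that library and between 2.99 and 19.5 in the other 5. Choroid plexus markers, the genes of the tissue that secretes cerebrospinal fluid, summed to 2767, 2877 and 44.7 CPM in saline replicates 2, 5 and 6 and to 294, 1688 and 38.6 in ethanol replicates 1, 4 and 6. Key values are therefore also given without saline replicate 5, and the part of these tissues in the results was not tested beyond that. Leaving that library out did not level the striatal markers. They summed to 934 and 357 CPM in saline replicates 2 and 6 and to 396, 467 and 315 CPM in ethanol replicates 1, 4 and 6.

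**Figure D1:**
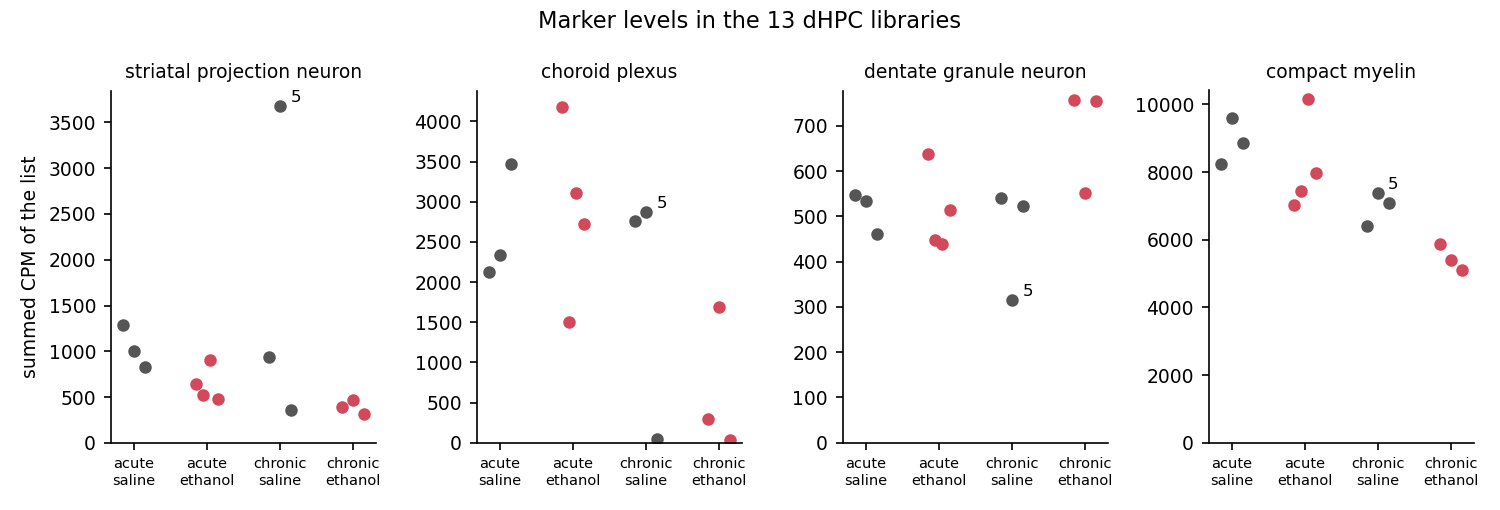
Summed CPM (y axis, linear, from 0) of 4 marker lists in the 13 dHPC libraries, by paradigm and treatment (x axis). Each dot is 1 mouse, grey for saline and red for ethanol, and the digit marks chronic saline replicate 5, which lies at 3681 CPM for striatal markers, is the lowest of the 13 libraries for dentate granule markers at 315 CPM and is within the range of the acute and chronic saline mice for choroid plexus markers.

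No gene passed an FDR of 0.1 in edgeR's quasi-likelihood test on 25958 genes. The lowest FDR reached was 0.566. At an unadjusted p under 0.05 there were 2136 genes (8.23%), with 902 (3.47%) higher and 1234 (4.75%) lower after ethanol. DESeq2, the test used in the study, gave 223 differentially expressed genes (DEGs, 0.859%) at the same threshold, 111 (0.428%) upregulated and 112 (0.431%) downregulated. In 212 of the 223 every ethanol library lay on the same side of every saline library, as in 6.8% of all genes upward and 7.18% downward. The 223 were called on these same 6 libraries, so this separation is no further support for the calls. The median absolute log2 fold change of the 223 was 0.50 (0.25 to 1.81). All 223 kept their sign without saline replicate 5, where DESeq2 gave 72 DEGs (41 higher, 0.161%, and 31 lower, 0.122%) and 61 of the 223 were still called. In the text below, a gene "rose" or "fell" where the DESeq2 FDR was below 0.1, and the fold changes and standard errors (SE) are those of edgeR, with n = 3 mice in each group. The edgeR FDR of every named gene in this comparison was at least 0.566, so these calls rest on DESeq2.

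Of the 112 downregulated genes, 17 (15.2%) belonged to 5 lists of mature oligodendrocyte genes, and none of the 111 upregulated genes did. The lists hold 50 of the 25958 genes tested. All 50 had lower mean levels after ethanol, with a median log2 fold change of -0.31 (-1.34 to -0.03) against a median of -0.00 over all genes tested. In edgeR, 39 of the 50 had an unadjusted p under 0.05, against 4.75% of all genes in that direction. In 30 of the 50 (60%) the groups did not overlap, against 7.18% of all genes. Myelination was among the themes already known for these samples when the lists were written, so the lists are not independent evidence of their direction. In bulk tissue, fewer oligodendrocytes in the dissected piece, by dissection or otherwise, and less of these RNAs per oligodendrocyte cannot be told apart. Choroid plexus and striatal markers also varied between these libraries.

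The difference varied between mice. On the log2(CPM + 0.5) scale, the median of the 50 genes relative to the saline mean was -0.14 in saline replicate 2, 0.08 in saline replicate 5 and 0.07 in saline replicate 6. It was -0.19 in ethanol replicate 1, -0.29 in ethanol replicate 4 and -0.43 in ethanol replicate 6. Saline replicate 2 thus lay close to ethanol replicate 1, and ethanol replicate 6 was the lowest of the 6 libraries for 41 of the 50 genes. Without saline replicate 5, 49 of the 50 genes were lower and the median was -0.28. In that fit 32 had an unadjusted p under 0.05 (2.59% of all genes) and 5 were DESeq2 calls (0.122% of all genes).

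**Figure D2:**
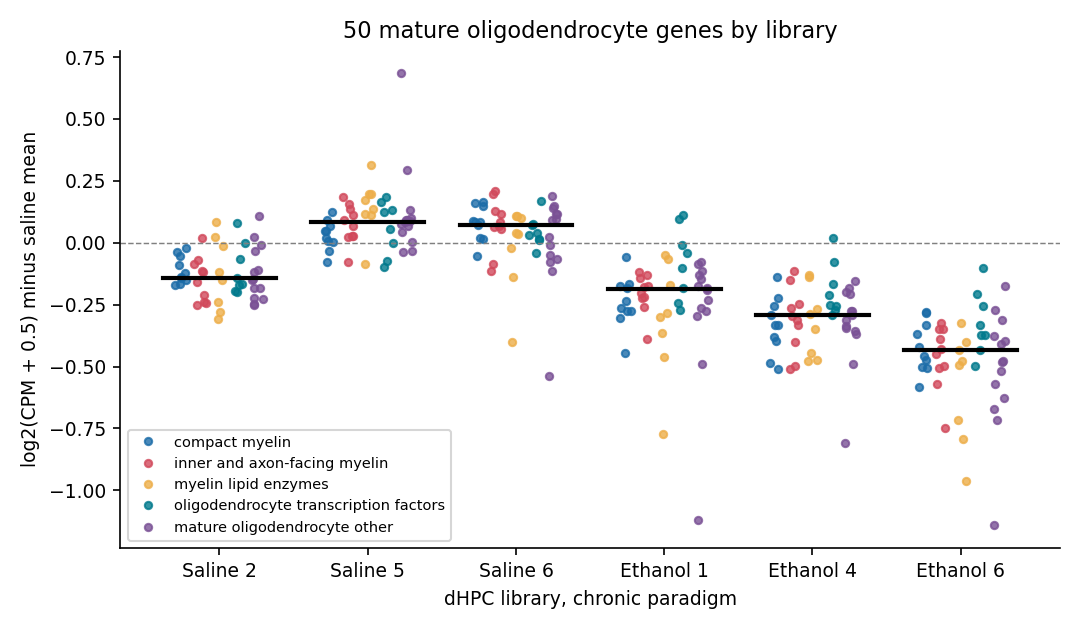
The 50 mature oligodendrocyte genes in each chronic dHPC library (x axis), as log2(CPM + 0.5) minus the mean of the 3 saline libraries (y axis). Dots are genes, coloured by list, and bars are medians, which lie between -0.14 and 0.08 in the saline libraries and between -0.43 and -0.19 in the ethanol libraries.

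The compact myelin genes encode the proteins that pack the membrane layers and join them. All 10 were lower, with a median log2 fold change of -0.33, and 7 fell (0.431% of all genes). Of these, 2 were still called without saline replicate 5 (0.122% of all genes). Mbp, which encodes myelin basic protein, the cytoplasmic glue of the layers, measured 2811, 3376 and 3143 CPM in saline replicates 2, 5 and 6 and 2635, 2358 and 2256 CPM in ethanol replicates 1, 4 and 6. Every ethanol library was below every saline library, and Mbp fell by 0.36 on the log2 scale (SE 0.09, DESeq2 FDR 0.0262), and without saline replicate 5 the difference was -0.30 and not called (FDR 0.208). Mobp, an abundant small myelin protein gene, measured 1142, 1248 and 1129 CPM against 969, 930 and 875 CPM. It fell by 0.34 (SE 0.07, DESeq2 FDR 0.00381) and was still called without saline replicate 5, at an FDR of 0.0222. Per kilobase of exon, Mbp had the highest level of the 50 genes, with means of 367 CPM per kilobase in saline and 285 in ethanol, against 171 and 135 for Mobp.

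The tight junction gene Cldn11, the vesicle protein gene Mal and the proteolipid gene Pllp fell as well, by 0.33, 0.26 and 0.42, and none of them was called without saline replicate 5 (FDR 0.128, 0.166 and 0.203). The 3 members that did not pass also had lower means: Pmp22 and Gjc3 had no overlap between the groups (log2 fold changes of -0.31 and -0.30), and Tspan2 overlapped (-0.16).

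Of the 10 genes of the inner, axon-facing and outer membrane, all were lower (median -0.33) and 3 fell (0.431% of all genes). Mag encodes the myelin-associated glycoprotein on the layer that faces the axon. It measured 204, 243 and 239 CPM in the saline and 174, 173 and 160 CPM in the ethanol libraries, so that the groups did not overlap. Mag fell by 0.44 (SE 0.08, DESeq2 FDR 0.0017), and by 0.39 without saline replicate 5 (FDR 0.0222). Cnp, an enzyme of the cytoplasmic channels of myelin, fell by 0.30 (FDR 0.0423) and Mog, the glycoprotein of the outermost layer, by 0.32 (FDR 0.0714), but neither was called without saline replicate 5 (FDR 0.205 and 0.347). Opalin, Ppp1r14a, Hapln2, Ermn, Septin4, Cntn2 and Cd9 had log2 fold changes between -0.44 and -0.20 and did not pass.

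The enzymes of myelin lipids had the lowest median of the 5 lists, -0.43 over 8 genes, and 3 fell (0.431% of all genes). Fa2h, the hydroxylase that makes the hydroxylated fatty acids of myelin galactolipids, measured 39.6, 47.7 and 45.0 CPM in the saline and 34.1, 31.5 and 31.4 CPM in the ethanol libraries. It fell by 0.45 (SE 0.08, DESeq2 FDR 0.00494) and by 0.39 without saline replicate 5 (FDR 0.0685). Ugt8a, the enzyme that adds galactose to ceramide, fell by 0.41 (FDR 0.0924, and 0.666 without saline replicate 5). The fatty acid elongase gene Elovl7 fell by 0.69 (FDR 0.0732) although its groups overlapped, and it was not called without saline replicate 5 (-0.52, FDR 0.751). Enpp6, Aspa, Gal3st1, Plpp2 and Cers2 did not pass.

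The transcription factors had the smallest median, -0.22, and none of the 8 passed the DESeq2 threshold. Olig2 was at 25.9, 29.1 and 32.8 CPM in the saline and 24.6, 24.1 and 20.5 CPM in the ethanol libraries (log2 fold change -0.34, SE 0.11, DESeq2 FDR 0.188). Sox10 overlapped, with 43.1, 55.5 and 50.6 CPM against 49.2, 40.3 and 41.3 CPM (-0.19, SE 0.11, FDR 0.732). Myrf, whose product switches on myelin genes directly, overlapped too (-0.24, SE 0.10, FDR 0.385), and Nkx2-2 and Zfp488 were within 0.07 of 0.

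Among the 14 other genes of mature oligodendrocytes, all were lower (median -0.30) and 4 fell (0.431% of all genes). Trf encodes transferrin, the iron carrier, which oligodendrocytes make in the brain. It measured 411, 431 and 374 CPM in the saline and 288, 316 and 262 CPM in the ethanol libraries, with no overlap. Trf fell by 0.49 (SE 0.09, DESeq2 FDR 0.000333), the lowest FDR of the 50 genes, and by 0.45 without saline replicate 5 (FDR 0.00712). Gjb1, which encodes connexin 32 of the gap junctions between myelin layers, fell from 15.4, 16.3 and 15.7 to 13, 11.1 and 9.43 CPM (-0.50, SE 0.12, FDR 0.0423). Plekhb1 fell by 0.30 (FDR 0.0741). Neither Gjb1 nor Plekhb1 was called without saline replicate 5 (FDR 0.298 and 0.439). The secreted protease gene Klk6 had the most negative log2 fold change of the set, -1.34 (SE 0.34, DESeq2 FDR 0.0187), with 3.15, 5.98 and 2.27 CPM against 1.36, 1.80 and 1.33 CPM. Saline replicate 5 held its highest value, and without that library the difference was -0.87 (FDR 0.394).

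Genes on either side of the mature cell showed little shift in median. Of 10 markers of oligodendrocyte precursors, 6 were lower and 4 higher (median -0.03). The precursor receptor gene Pdgfra measured 45.9, 46.9 and 57.4 CPM in the saline and 49.3, 52.7 and 45.7 CPM in the ethanol libraries (log2 fold change -0.02, SE 0.10). Only Bcas1, a gene of cells that have begun to make myelin, fell, from 207, 240 and 227 to 186, 168 and 155 CPM (-0.40, SE 0.09, DESeq2 FDR 0.00881). The 10 genes of the axonal node and paranode, the gaps between myelin segments, had a median of 0.01 and no call. Microglial markers had a median of 0.01 over 13 genes tested, with no gene under an unadjusted p of 0.05.

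**Figure D3:**
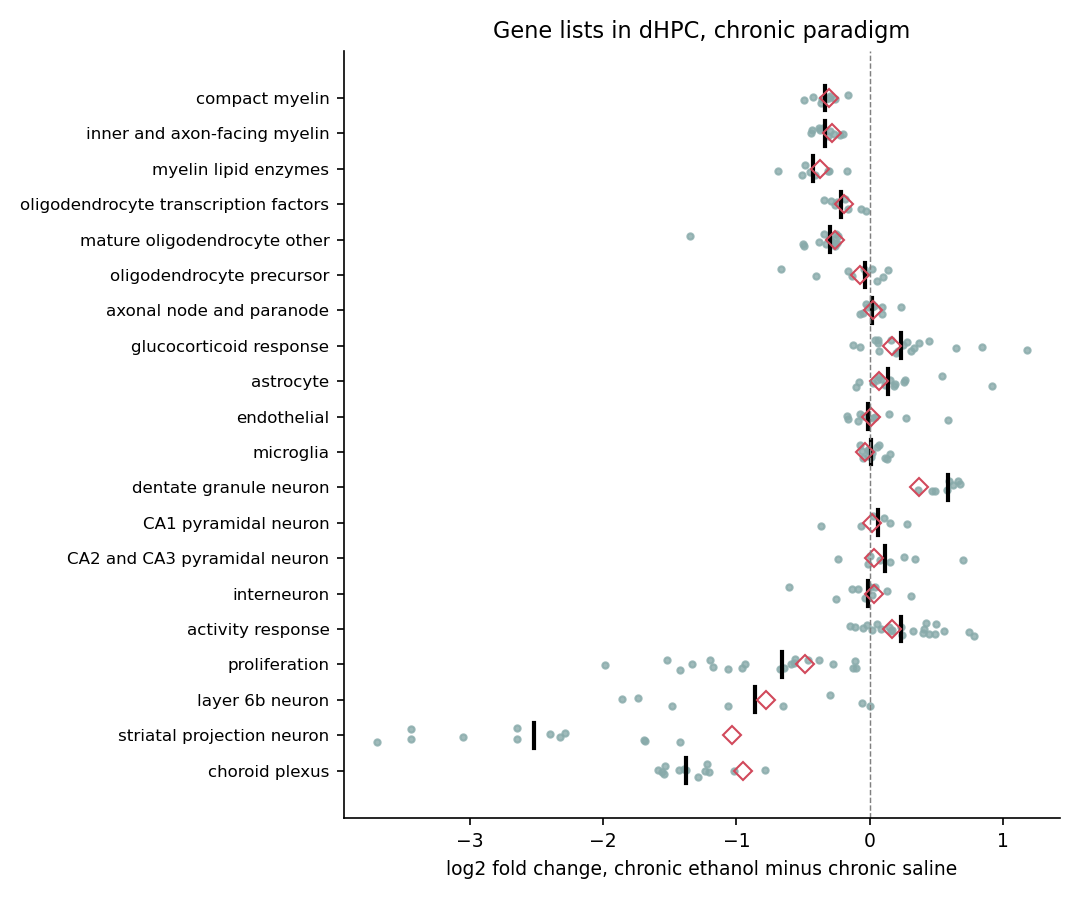
Log2 fold change of chronic ethanol over chronic saline in dHPC (x axis) for 20 gene lists (y axis). Dots are genes, black bars are list medians and red diamonds are medians without saline replicate 5, and the 5 mature oligodendrocyte lists lie between -0.22 and -0.43 in median while the lists for precursors and axonal nodes lie at -0.03 and 0.01.

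Reads of a gene and of a partner on the opposite strand cannot be told apart, since the library kit keeps no strand and the reads were counted with a reverse-stranded setting. Among the genes above, Mbp, Mobp, Mag, Trf, Cnp and Mog have an exon overlapped on the other strand, and Cldn11, Mal, Fa2h, Ugt8a, Gjb1 and Klk6 have none. In a fit of genes free of such overlap, 22 of the 50 remained and were all lower. Their median was -0.31, against -0.01 over all genes of that fit.

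Promoters are shown for 4 of these genes to give the sequence around their start, since SOX10 is a known regulator of myelin genes. RefSeq promoters (GRCm38.p6, from 250 bases before to 50 after the first listed start) matched 38 of the 50 genes. Capitals mark ACAAAG, a core of the SOX family site, searched on both strands, so that CTTTGT is its reverse complement. The promoters, 5′ to 3′, are those of Mag (chr7:30914814-30915113, minus strand), Mobp (chr9:120149492-120149791, plus strand), Klk6 (chr7:43824294-43824593, plus strand) and Gjb1 (chrX:101376126-101376425, plus strand).
Mag: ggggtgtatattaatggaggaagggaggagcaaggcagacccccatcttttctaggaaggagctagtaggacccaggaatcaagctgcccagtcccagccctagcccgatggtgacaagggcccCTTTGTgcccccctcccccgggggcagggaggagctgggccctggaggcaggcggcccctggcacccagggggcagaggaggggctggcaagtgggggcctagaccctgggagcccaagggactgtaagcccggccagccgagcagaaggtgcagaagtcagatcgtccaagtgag
Mobp: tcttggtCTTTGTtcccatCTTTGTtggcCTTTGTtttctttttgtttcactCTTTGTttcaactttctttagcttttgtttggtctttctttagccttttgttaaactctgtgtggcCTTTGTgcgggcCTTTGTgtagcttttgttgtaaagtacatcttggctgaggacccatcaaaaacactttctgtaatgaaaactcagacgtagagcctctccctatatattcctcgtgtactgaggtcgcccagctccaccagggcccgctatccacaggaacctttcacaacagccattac
Klk6: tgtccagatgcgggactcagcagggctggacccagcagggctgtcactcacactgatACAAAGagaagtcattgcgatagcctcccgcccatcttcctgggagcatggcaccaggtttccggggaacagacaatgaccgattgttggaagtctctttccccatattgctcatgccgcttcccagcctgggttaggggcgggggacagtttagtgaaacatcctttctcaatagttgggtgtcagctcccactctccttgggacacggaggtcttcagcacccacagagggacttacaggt
Gjb1: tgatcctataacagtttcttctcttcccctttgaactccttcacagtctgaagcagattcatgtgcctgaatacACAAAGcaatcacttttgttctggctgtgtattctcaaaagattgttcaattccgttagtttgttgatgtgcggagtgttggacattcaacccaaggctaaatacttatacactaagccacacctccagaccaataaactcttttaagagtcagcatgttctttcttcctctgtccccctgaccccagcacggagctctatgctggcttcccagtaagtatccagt
The promoter of Mobp held 6 matches and those of Mag, Klk6 and Gjb1 held 1 each. In all, 7 of the 38 oligodendrocyte promoters (18.4%) held a match, and so did 18.7% of 27025 promoters. The 4 shown are all among those 7, so they do not stand for the 38. A match is a description of these letters and not of a bound site.

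The same 50 genes were set beside the other comparisons of the study. After acute ethanol in dHPC, 45 of the 50 were lower, with a median log2 fold change of -0.18, and 20 of these had an unadjusted p under 0.05 (4.2% of all genes in that direction). After chronic ethanol in the cortex, 46 were higher (median 0.21), with 1 at an unadjusted p under 0.05 (4.31% of all genes), and none of the 4 lower genes had one (6.04% of all genes). The compact myelin genes summed to 1162, 2505 and 2104 CPM in cortex chronic saline replicates 3, 5 and 6. The part of the low replicate 3 in the cortex values was not tested. After chronic ethanol in the ventral hippocampus (vHPC), all 50 were higher (median 0.61), with 28 at an unadjusted p under 0.05 (5.11% of all genes upward, 4.4% downward). Markers of other tissues moved with these comparisons too, and their part in the myelin values was not tested. After acute ethanol in dHPC all 12 striatal markers were lower (median -0.95, each at an unadjusted p under 0.05), from between 833 and 1290 CPM in sum in saline to between 479 and 906 in ethanol mice, and thalamic markers had a median of 0.69. After chronic ethanol in vHPC all 13 choroid plexus markers were higher (median 4.14, each at an unadjusted p under 0.05), as were all 12 striatal markers (median 1.53, of which 3 had one). In edgeR, Ugt8a had an FDR below 0.1 in acute dHPC (-0.61, SE 0.08, FDR 0.0956), as 0.042% of all genes did, and no member had one in chronic cortex, where no gene did, or in chronic vHPC, where 0.0555% did. Mag had a log2 fold change of -0.44 (SE 0.08) in chronic dHPC, -0.19 (SE 0.08) in acute dHPC, 0.22 (SE 0.26) in chronic cortex and 0.58 (SE 0.23) in chronic vHPC. Mbp had -0.36 (SE 0.09), -0.16 (SE 0.10), 0.44 (SE 0.27) and 0.61 (SE 0.27) in the same order.

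The difference between paradigms in dHPC was tested as an interaction. EdgeR gave no gene at an FDR below 0.1 among 26850 (1202, or 4.48%, at an unadjusted p under 0.05, and 2 DESeq2 calls, or 0.00745%), and 4 of the 50 oligodendrocyte genes had an unadjusted p under 0.05. Among the genes with the smallest p in this interaction, the basement membrane receptor gene Itgb4 and the adhesion protein gene Igsf21 fell in chronic dHPC, by 0.54 and 0.58, with log2 fold changes of 0.02 and 0.19 after acute ethanol. Ide, the insulin-degrading enzyme gene, measured 35, 34.1 and 36.3 CPM in the chronic saline and 37.5, 57.5 and 80.5 CPM in the chronic ethanol libraries (0.73, SE 0.23, DESeq2 FDR 0.334). The interaction of region and treatment between dHPC and cortex also had no edgeR call among 26954 genes, with 2583 (9.58%) at an unadjusted p under 0.05 and 159 DESeq2 calls (0.59%). Of the 50 genes, 22 had an unadjusted p under 0.05 there, with a smallest edgeR FDR of 0.444. Mal was the only member among the DESeq2 calls, with a difference of -0.87 between the regions (DESeq2 FDR 0.0964). With the mouse as a block, since 4 mice gave both regions, DESeq2 called 16 genes, 5 of them among the 159, and Mal was not one of them. The difference from vHPC was not tested, since its libraries came from another kit and sequencing platform.

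**Figure D4:**
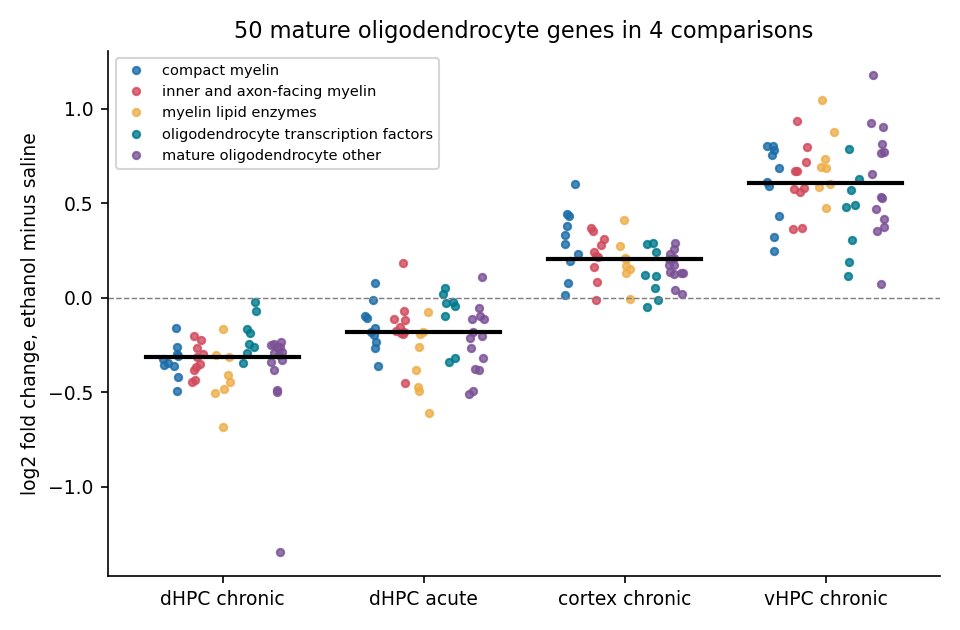
Log2 fold change of ethanol over saline (y axis) of the 50 mature oligodendrocyte genes in 4 comparisons (x axis). Dots are genes, coloured by list, and bars are medians, at -0.31 in chronic dHPC, -0.18 in acute dHPC, 0.21 in chronic cortex and 0.61 in chronic vHPC.

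The level of myelin genes also differed between libraries of 1 treatment. The compact myelin genes summed to 6397, 7366 and 7088 CPM in chronic saline replicates 2, 5 and 6 and to 5871, 5388 and 5109 CPM in chronic ethanol replicates 1, 4 and 6. In the acute paradigm they summed to between 8235 and 9591 CPM in saline and between 7033 and 10156 CPM in ethanol mice. The DS libraries of acute saline mice, from the other kit and platform, held between 7877 and 9496 CPM. Beyond leaving saline replicate 5 out, the part of striatal tissue in the myelin difference was not tested.

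Outside the oligodendrocyte lists, the lower genes with the smallest p included Serpinb1a and Atp2b4. Serpinb1a, an inhibitor of neutrophil serine proteases, measured 10.4, 10.3 and 10.4 CPM in the saline and 6.71, 6.38 and 6.21 CPM in the ethanol libraries. The spread within each group was small and the groups were well apart, and Serpinb1a fell by 0.69 (SE 0.10, DESeq2 FDR 0.000248), and by the same amount without saline replicate 5 (FDR 0.00314). Atp2b4, a plasma membrane calcium pump, measured 71.7, 82.4 and 74.6 CPM against 49.99, 57.9 and 53.6 CPM. It fell by 0.50 (SE 0.08, FDR 0.000248) and remained called without saline replicate 5 (-0.45, FDR 0.00314). The calcium-binding channel subunit gene Kcnip3, the adenylosuccinate synthase gene Adss1, Frmd8 and the spectrin gene Sptbn5 fell by 0.31, 0.50, 0.43 and 0.96, each with no overlap and each called without saline replicate 5 (FDR 0.0823, 0.0983, 0.0634 and 0.0944).

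Some of the largest falls were in genes at low levels. Nxph4, a secreted ligand of neurexins that marks deep cortical neurons, measured 2.59, 1.61 and 1.65 CPM in the saline and 0.339, 0.680 and 0.771 CPM in the ethanol libraries. It fell by 1.74 (SE 0.34, DESeq2 FDR 0.00376), and by 1.86 without saline replicate 5 (FDR 0.0232). Myl4, Trbc2 and Krt80, which were named from among calls whose groups did not overlap, fell by 1.59, 1.78 and 1.59. Of these 3 only Myl4 was called without saline replicate 5 (FDR 0.0823, against 0.999 and 0.453). A list of 8 genes taken as markers of layer 6b neurons of the cortex, written after these values had been seen, had 8 lower genes (median -0.86, from -1.86 to -0.0012). Nxph4 and Cplx3, a regulator of vesicle release, fell, as 0.431% of all genes did. Cplx3 measured 13.2, 6.68 and 7.78 CPM against 3.18, 5.90 and 4.26 CPM (-1.06, SE 0.30, DESeq2 FDR 0.0228). The list summed to 224, 208 and 177 CPM in the saline and to 135, 167 and 161 CPM in the ethanol libraries, and its part in the other differences was not tested. In saline mice it summed to between 61.5 and 182 CPM in the chronic cortex and between 260 and 271 CPM in the acute DS. The sum was thus not highest in the cortex, and the list is not specific to layer 6b neurons here.

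A second list written in the same way, of 20 genes of dividing cells, had 20 lower genes (median -0.66). Of these, Top2a and Cdca7 fell (0.431% of all genes) and 9 had an unadjusted p under 0.05 (4.75% of all genes in that direction). Top2a, the topoisomerase of dividing cells, measured 6.06, 8.53 and 3.83 CPM against 1.99, 3.92 and 2.27 CPM (-1.18, SE 0.33, DESeq2 FDR 0.028), with overlap between the groups. Saline replicate 5 held the highest level of Top2a and of the proliferation gene Mki67 (6.65, 11.9 and 4.19 against 4.71, 5.66 and 4.18 CPM). Without that library no gene of the list was called, and the median was -0.48.

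Among the genes that rose, the highest fold change was in Lrg1, which encodes a secreted leucine-rich glycoprotein of the acute phase and of blood vessels. Lrg1 measured 0.555, 0.502 and 0.780 CPM in the saline and 2.22, 2.80 and 1.41 CPM in the ethanol libraries. All ethanol libraries were above all saline libraries at this low level, and Lrg1 rose by 1.81 (SE 0.30, DESeq2 FDR 0.000532), and by 1.69 without saline replicate 5 (FDR 0.0221). Plin4, a lipid droplet coat protein gene, measured 7.87, 13 and 6.39 CPM against 22.9, 22.9 and 15.8 CPM. It rose by 1.18 (SE 0.26, DESeq2 FDR 0.000514), and, by 1.52 without saline replicate 5, which was the highest of the saline libraries (FDR 2.14e-11). Lrg1 (chr17:56426678-56429001) and Plin4 (chr17:56407591-56416803) lie on the minus strand of the same stretch of GRCm39, and both have an exon overlapped on the other strand. The phospholipase gene Pla2g2f and C2cd4a, also at low levels, rose by 0.87 and 0.86, and neither was called without saline replicate 5 (FDR 0.407 and 0.413).

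Agt, which encodes angiotensinogen, the precursor of angiotensin and in brain a product of astrocytes, measured 11.4, 10.3 and 12.2 CPM in the saline and 18.6, 18.0 and 27.4 CPM in the ethanol libraries. The groups did not overlap, and Agt rose by 0.92 (SE 0.16, DESeq2 FDR 0.000248), and by 0.85 without saline replicate 5 (FDR 0.0109). The RefSeq promoter of Agt (GRCm38.p6, chr8:124569657-124569956, minus strand) and that of Lrg1 (chr17:56121897-56122196, minus strand) are shown because Lrg1 had the highest fold change, and Agt the lowest FDR, among the named genes that rose. Capitals mark a TATA box core, TATAAA, which 14.2% of the 27025 promoters hold on either strand.
Agt: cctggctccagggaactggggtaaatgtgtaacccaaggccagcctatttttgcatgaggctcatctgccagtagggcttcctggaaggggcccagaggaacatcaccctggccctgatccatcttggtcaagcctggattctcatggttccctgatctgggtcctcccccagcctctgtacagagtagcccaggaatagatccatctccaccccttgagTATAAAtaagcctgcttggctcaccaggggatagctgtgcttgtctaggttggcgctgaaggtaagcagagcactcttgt
Lrg1: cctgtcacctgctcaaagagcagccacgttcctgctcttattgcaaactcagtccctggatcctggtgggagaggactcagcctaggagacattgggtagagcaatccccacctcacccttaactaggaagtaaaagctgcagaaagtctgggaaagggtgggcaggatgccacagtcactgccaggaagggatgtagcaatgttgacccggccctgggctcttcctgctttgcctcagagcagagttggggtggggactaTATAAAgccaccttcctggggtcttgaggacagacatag
Each held 1 match, in the printed orientation. In the cortex the chronic difference of Agt was -0.08 (SE 0.18), and DESeq2 called the interaction of region and treatment for this gene (0.98, FDR 0.0527) while edgeR did not (FDR 0.444), nor did DESeq2 with the mouse as a block.

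The astrocyte list had 12 of 14 genes higher (median 0.14), and 2 rose, Agt and Gjb6 (0.428% of all genes rose). Without saline replicate 5, 11 of the 14 were higher and the median was 0.07. Gjb6, which encodes connexin 30 of astrocyte gap junctions, measured 36.8, 30.0 and 35.9 CPM against 45.1, 45.1 and 59.3 CPM (0.54, SE 0.12, DESeq2 FDR 0.0131, and 0.166 without saline replicate 5). The structural marker Gfap overlapped, with 341, 276 and 413 CPM against 405, 356 and 415 CPM (0.19, SE 0.14). Of 10 endothelial markers the median was -0.02 and 1 rose (0.428% of all genes). This was Mfsd2a, the lipid transporter of the blood-brain barrier, with 15.7, 15 and 14.0 CPM in the saline and 21.6, 19.6 and 25.8 CPM in the ethanol libraries (0.58, SE 0.11, DESeq2 FDR 0.00295, and 0.0302 without saline replicate 5). After acute ethanol in dHPC, Mfsd2a had a log2 fold change of 0.60 (SE 0.08, edgeR FDR 0.096).

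**Figure D5:**
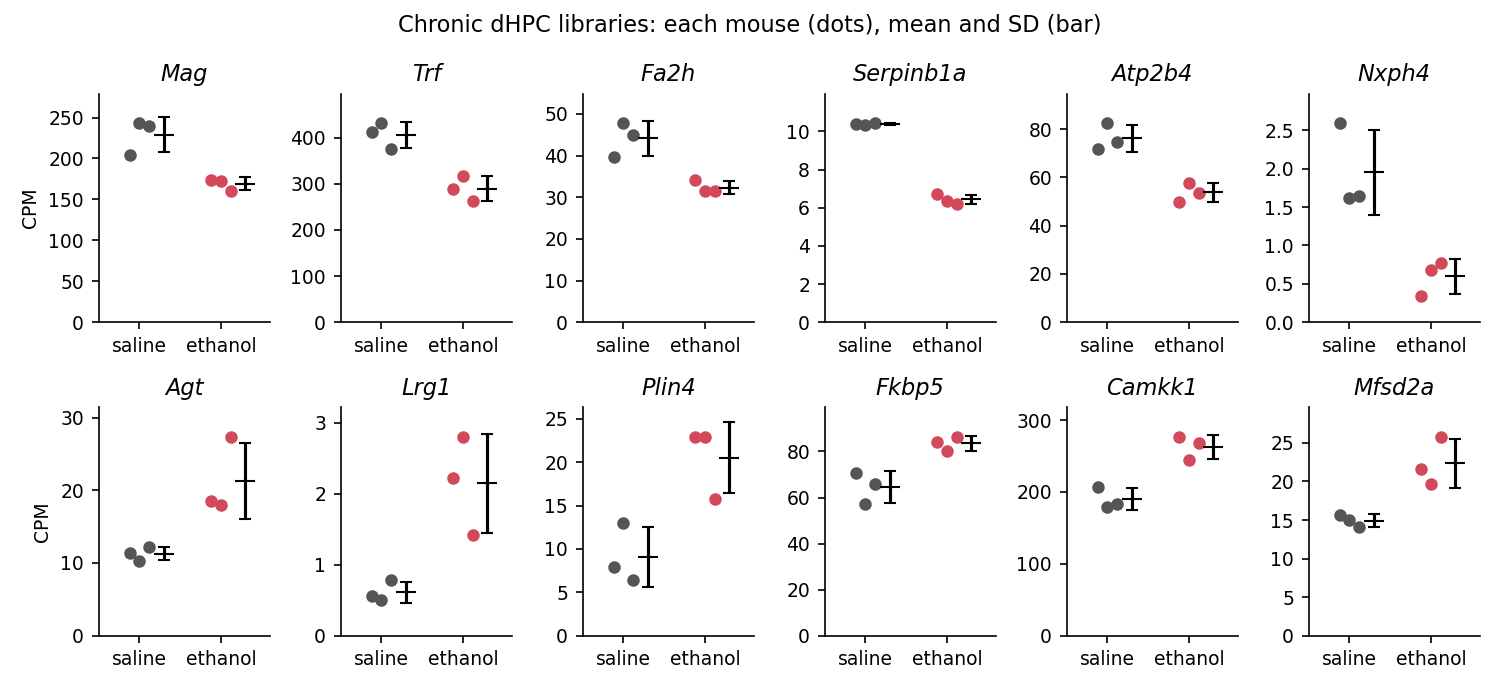
CPM (y axes, linear, from 0) of 12 genes in the chronic saline (grey) and chronic ethanol (red) dHPC libraries. Each dot is 1 mouse and the bar beside the dots is the mean with its SD (n = 3). The 12 were picked from the named genes. In each the ethanol dots lie wholly below or wholly above the saline dots, as in 7.18% and 6.8% of all genes.

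Of 18 glucocorticoid response genes, 16 were higher, with a median log2 fold change of 0.23 (0.16 without saline replicate 5), and 7 had an unadjusted p under 0.05 against 3.47% of all genes. In 5 of them the groups did not overlap, against 6.8% of all genes in that direction, and 5 had an unadjusted p under 0.05 without saline replicate 5 (2.25% of all genes). Plin4, Hif3a, Map3k6 and Fkbp5 rose, as 0.428% of all genes did. Fkbp5, a co-chaperone that dampens the glucocorticoid receptor, measured 70.7, 57.2 and 65.9 CPM in the saline and 84.0, 80.2 and 86.4 CPM in the ethanol libraries. It rose by 0.37 (SE 0.08, DESeq2 FDR 0.0255), and by 0.29 without saline replicate 5 (FDR 0.0915). Hif3a, a member of the hypoxia-inducible factor family, rose by 0.84 (SE 0.18, FDR 0.00578), with 4.37, 4.12 and 4.70 CPM against 7.94, 9.71 and 6.00 CPM. Map3k6, a stress kinase, rose by 0.65 (SE 0.15, FDR 0.0714), but was not called without saline replicate 5 (FDR 0.46).

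Other members of that list were spread between mice of the ethanol group. The kinase gene Sgk1 measured 92.2, 67.9 and 71.2 CPM in the saline and 49.9, 118 and 52.7 CPM in the ethanol libraries (-0.07, SE 0.31), so that ethanol replicate 4 was the highest and ethanol replicate 1 the lowest of all 6. Tsc22d3 and Per1 had log2 fold changes of 0.25 (SE 0.12) and 0.06 (SE 0.11), and both overlapped. The list was also higher after acute ethanol in dHPC, where all 18 genes had an unadjusted p under 0.05 (3.67% of all genes in that direction) and the median was 0.50. The interaction of paradigm and treatment had 4 of the 18 genes at an unadjusted p under 0.05 (4.48% of all genes in either direction) and none at an FDR below 0.1 in edgeR. The glucocorticoid receptor half-site AGAACA, searched on both strands, was found in 2 of 17 matched promoters of the list (11.8%, Sgk1 and Sult1a1) and in 19.0% of all promoters.

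Several of the genes with the smallest p in the upward direction are expressed in neurons. Camkk1, a kinase upstream of calcium/calmodulin-dependent kinases, measured 207, 179 and 184 CPM in the saline and 277, 244 and 268 CPM in the ethanol libraries. The groups were apart, and Camkk1 rose by 0.47 (SE 0.08, DESeq2 FDR 0.000333), and by 0.43 without saline replicate 5 (FDR 0.00657). Doc2b, a calcium sensor of vesicle release, measured 109, 111 and 114 CPM against 150, 136 and 147 CPM (0.38, SE 0.06, FDR 0.000532). The amino acid transporter gene Slc7a14, the deubiquitinase gene Otub2, the transcription factor gene Elk1, the lysosomal trafficking gene Lyst and the syntrophin gene Sntb2 rose by 0.39, 0.48, 0.38, 0.36 and 0.31. Each had no overlap and was still called without saline replicate 5, with FDRs between 0.00314 and 0.0915.

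Markers of dentate granule neurons had the highest median of the lists, 0.59 over 8 genes, all higher, of which 7 had an unadjusted p under 0.05 (3.47% of all genes in that direction) and 2 rose (0.428% of all genes). Prox1, the transcription factor that sets granule cell identity, measured 127, 80.0 and 128 CPM in the saline and 185, 135 and 180 CPM in the ethanol libraries (0.58, SE 0.19, DESeq2 FDR 0.0697), and Glis3 rose by 0.37 (FDR 0.0728). The list summed to 540, 315 and 523 CPM in the saline and to 756, 551 and 754 CPM in the ethanol libraries. Saline replicate 5, the library with striatal markers, was the lowest of the 6, and without it the median was 0.37, 4 genes had an unadjusted p under 0.05 (2.25% of all genes) and neither gene was called (Prox1 FDR 0.387, Glis3 FDR 0.382), while Dsp, a desmosome gene of granule cells, was (0.44, FDR 0.0823). The CA1 list had a median of 0.07 with no call, and the CA2 and CA3 list a median of 0.12, where Iyd rose (0.70, DESeq2 FDR 0.0995). Without saline replicate 5 the CA2 and CA3 median was 0.03 and Iyd was not called (0.75, FDR 0.384). Interneuron markers had a median of -0.01 and no call.

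Genes induced by neuronal activity had a median of 0.24 over 22 genes, with 18 higher, and 1 rose (0.428% of all genes). That was Jun, with 88.9, 61.8 and 90.6 CPM in the saline and 119, 90.4 and 147 CPM in the ethanol libraries (0.56, SE 0.19, DESeq2 FDR 0.0982), and without saline replicate 5 it was not called (FDR 1). Fos had a log2 fold change of 0.74 with an SE of 0.61. The activity list summed to 852, 812 and 931 CPM in the saline and to 725, 1148 and 1203 CPM in the ethanol libraries. Ethanol replicate 1 was thus the lowest of all, and the shift was not shared by every ethanol mouse. Of other genes that the study considers for chronic ethanol, Tgm2, a transglutaminase, rose by 0.73 (SE 0.15, DESeq2 FDR 0.00239), with 9.98, 10.6 and 9.71 CPM against 19.7, 17.6 and 13.1 CPM. Sh3bp5 rose by 0.38 (FDR 0.0682) and Bahcc1 fell by 0.35 (FDR 0.0714), and neither was called without saline replicate 5. Tmem151b overlapped between the groups (0.20, SE 0.12, FDR 0.694).

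At the level of transcript isoforms, edgeR called none of 131317 at an FDR below 0.1 (smallest FDR 0.638, with 9494, or 7.23%, at an unadjusted p under 0.05). DESeq2 called 247 higher (0.188%) and 417 lower (0.318%) isoforms. These came from 247 genes, of which 188 were also called as genes and 59 were not. Isoforms of 1 gene share reads, since a read pair was counted for every isoform it overlapped, so their calls are not independent. All 16 isoforms of Mbp were lower, with log2 fold changes between -0.39 and -0.08, and 15 of them were called. All 8 of Mag and both of Mog were lower as well, with 7 and 2 calls. Of the 12 isoforms of Fkbp5, 11 were higher and 8 were called, against 1 of 4 for Tgm2, 3 of 4 for Sh3bp5 and none for Plin4 and Bahcc1. The smallest isoform p-values were those of Serpinb1a, Atp2b4 and Trf isoforms among the lower and of Camkk1, Lrg1, Agt and Kbtbd11 isoforms among the higher. Kbtbd11-204 rose from 6.16, 5.68 and 6.09 to 7.96, 8.18 and 8.45 CPM (0.46, SE 0.07, DESeq2 FDR 0.00219).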

How the data were processed

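The 6 libraries are poly(A) RNA-seq of dHPC, from a kit that keeps no strand. Per the labels and methods, the authors used Cutadapt (5.0) for trimming, STAR (2.7.10a) for alignment to GRCm39 and featureCounts (2.0.6) for read pairs on exons, set as reverse-stranded, with multi-mapping and overlapping pairs counted for each feature. The deposited values are raw counts of genes and isoforms. Groups were taken from the labels.

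From these counts, genes reaching 5 counts in 2 or more libraries of either group were tested with edgeR (4.0.16, limma 3.58.1, R 4.3.3), by the quasi-likelihood F test with TMM normalization and a prior count of 0.125, and with DESeq2 (1.42.0, Wald test). P-values were adjusted by Benjamini-Hochberg, in edgeR over all genes or isoforms tested. DESeq2 adjusted only over those for which it gave an FDR. It gave none for 8054 genes, which the shares of all genes still count. Only the 2 groups compared entered a fit. Interactions were fitted on the 4 groups involved. Levels are TMM-normalized CPM, and CPM per kilobase uses exon length. Both tests were checked on simulated counts. Python 3.11.15 with pandas 2.3.3, numpy 2.4.6 and matplotlib 3.10.9 served for tables and plots.

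The members and gene lists were chosen with earlier results of these data known. Named genes were the 10 with the smallest p in each direction at a mean of 50 counts or more, the 5 with the largest fold change in each direction among non-overlapping DESeq2 calls at a mean of 10 counts or more, list members, genes named in the study for chronic ethanol, and the 5 smallest p in each direction of each interaction and of the isoforms. 3 lists (proliferation, immature neuron, layer 6b) and the alternatives named as such in the closing section were chosen after seeing the data. 4 mice gave both dHPC and cortex libraries, which pairs these regions by animal; their deviations from group means correlated between 0.0391 and 0.208. Counts without molecular identifiers carry more than counting error. Values of 2 of the listed genes are not reported here.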

Additional observations from a re-analysis of the deposited data

Results flagged for a closer look

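The chronic ethanol difference in dHPC was set against that in the cortex and against the acute difference in dHPC as an interaction, for the named genes. In the comparison with the cortex, 18 named genes passed an FDR of 0.1 in DESeq2 (159, or 0.59%, of all genes) and none did in edgeR, where the FDR was 0.142 for Rreb1 and 0.444 for the others. Of the 18, 10 had been named for having the smallest p in this same interaction, so that their number is no result. With the mouse as a block, Rreb1 was the only 1 of the 18 that DESeq2 called. The transcription factor gene Rreb1 had log2 fold changes of 0.42 in dHPC and -0.60 in the cortex, a difference of 1.01 (DESeq2 FDR 7.30e-07). Positive differences, dHPC minus cortex, were also found for Agt (0.98), Cblb (0.85), Grin2a (0.78), Plxna4 (0.73), Vps13c (0.64), Rbm4b (0.53), Slc4a4 (0.45), Elk1 (0.38) and Slc7a14 (0.35). Negative differences were found for Sptbn5 (-1.14), Col6a2 (-1.08), Mal (-0.87), Igfbp6 (-0.85), Dusp26 (-0.69), Gap43 (-0.63), Kcnip3 (-0.61) and Degs1 (-0.45). The myelin vesicle protein gene Mal had log2 fold changes of -0.26 in dHPC and 0.60 in the cortex, and Gap43, a growth cone protein gene, had -0.36 and 0.27. In the comparison of paradigms, Col6a2, a collagen VI chain gene, was the 1 named gene called by DESeq2 (FDR 0.0892). EdgeR did not call it (FDR 0.969). Col6a2 had been named for its small p in this same interaction, so the call is no independent result. DESeq2 with the replicate number as a block gave an FDR of 0.248. Replicate numbers mark different mice in these groups, so that block pairs unrelated animals and decides nothing. The log2 fold changes of Col6a2 were -1.19 after chronic and 0.15 after acute ethanol, a difference of -1.34.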

How the results depend on the processing

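The count of edgeR calls among genes was 0 with DESeq2's size factors, no filter, a minimum of 10 counts in every sample, all 4 dHPC groups in 1 fit, GC and length trends removed, genes free of antisense overlap (11620), genes at least 2-fold higher in DS left out (1392) and each library left out. DESeq2 gave 223 genes, and between 72 (without saline replicate 5) and 716 (without saline replicate 6) with 1 library left out. Without saline replicate 2, ethanol replicate 1, ethanol replicate 4 and ethanol replicate 6 it gave 477, 88, 262 and 76, of which 179, 60, 130 and 51 were among the 223, as were 61 of the 72 and 172 of the 716. Among isoforms, DESeq2 gave 664 calls (146 without saline replicate 5) and edgeR without a filter 64. The interaction with the cortex gave 159 calls in DESeq2, 65 in edgeR without a filter and 0 to 1 with a library left out, where the 1 was without cortex chronic ethanol replicate 1. That with the acute paradigm gave 2 in DESeq2. The DESeq2 runs that left out a library other than saline replicate 5, DESeq2 on isoforms without it and the 11 further left-out libraries of the cortex interaction were chosen after seeing the data. The cause of these changes was not tested.

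Of the named genes, Nkx2-2, Pdgfra, Per1, Sgk1 and Zfp488, none of them called, changed sign under these alternatives, and the others did not. With 1 library left out, log2 fold changes ran from -0.11 to 0.084 for Nkx2-2, -0.090 to 0.084 for Pdgfra, -0.031 to 0.18 for Per1, -0.59 to 0.14 for Sgk1 and -0.16 to 0.066 for Zfp488. Nkx2-2 was also at 0.00034 with GC and length trends removed and at 0.089 in DESeq2 without saline replicate 5. Medians close to 0, such as those of precursor, microglial, interneuron and endothelial lists, changed sign under some of them, and those of the 5 oligodendrocyte lists together under none. The oligodendrocyte median stayed between -0.39 and -0.26. The striatal median went from -2.52 to -1.03 without saline replicate 5, the layer 6b median from -0.86 to -0.59 without ethanol replicate 1, and the proliferation median from -0.66 to -0.92 without saline replicate 6 and -0.95 without ethanol replicate 4. All 12 striatal markers were still lower without saline replicate 5, with 4 at an unadjusted p under 0.05 (2.59% of all genes in that direction). No paired analysis was possible because the chronic dHPC groups share only the replicate number 6, which marks different mice. With a replicate block, the interactions had 0 edgeR calls, as without it (smallest FDR 1 in both). DESeq2 with the mouse as a block gave 16 calls in the interaction with the cortex, 5 of them among the 159. With the replicate number as a block it gave 16 in that with the acute paradigm, none of them among the 2. The replicate number marks different mice there, so that block pairs unrelated animals and decides nothing. Both blocked DESeq2 fits were added after seeing the data. With 3 mice in a group, a gene that did not pass is not shown to be unchanged.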

Other observations

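Other gene groups moved little in dHPC after chronic ethanol. For 14 ionotropic glutamate receptor genes the median log2 fold change was 0.04, with no DESeq2 call. Among them the AMPA receptor gene Gria4 measured 43.2, 48.0 and 48.6 CPM in saline replicates 2, 5 and 6 and 39.7, 41.0 and 39.3 CPM in ethanol replicates 1, 4 and 6 (-0.22, SE 0.07, DESeq2 FDR 0.27). The 12 GABA-A receptor genes had a median of 0.08 and the 14 postsynaptic scaffold genes a median of 0.01, both without a call. The 20 genes of cholesterol synthesis had a median of -0.03 and none at an unadjusted p under 0.05. The 15 circadian clock genes had a median of 0.00 and no call.

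The 10 genes of ethanol and acetate metabolism had a median of -0.06 (-0.21 over those free of antisense overlap) and no call. Aldh2, the mitochondrial enzyme that oxidises acetaldehyde, measured 101, 99.0 and 84.6 CPM against 76.7, 86.4 and 82.7 CPM (-0.21, SE 0.08, DESeq2 FDR 0.391). Heat shock chaperones had 14 of 15 genes higher (median 0.10) and no call. Hspa1a, the inducible HSP70 gene, measured 38.7, 33.6 and 31.2 CPM in the saline and 42.9, 41.1 and 86.4 CPM in the ethanol libraries, so that ethanol replicate 6, the library lowest in oligodendrocyte genes, was the highest. Unfolded protein response genes had a median of 0.09 over 17 entries and no call. They summed to 1747 CPM in ethanol replicate 6 and to between 1135 and 1286 CPM in the other 5 chronic dHPC libraries.

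Of the other cell types, mural cells had a median of -0.04, meningeal and vascular fibroblasts 0.14, neocortical neurons -0.05, thalamic neurons 0.28 and immature neurons -0.08, each with no call. Ependymal markers had 7 of 7 genes lower (median -0.98, -0.43 without saline replicate 5 and -2.04 without ethanol replicate 4) and choroid plexus markers 13 of 13 (median -1.38), with no gene of either list at an unadjusted p under 0.05. The choroid plexus gene Ttr measured 2409, 2511 and 16.3 CPM in the saline and 232, 1448 and 10.5 CPM in the ethanol libraries, a spread within each group that was wider than the difference between them.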
